A study of Mus musculus with 6 samples.

Results

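The genes described here encode the enzymes that make, recycle and interconvert purine, pyrimidine and deoxyribonucleotides, with Samd9l listed beside them. They were chosen by name, as 41 gene symbols, and each was read by its brightest probe set, taken as that with the highest mean intensity. Of the 41 symbols, 40 had a probe set of their own among the 18193 genes named on the array, and Impdh2 is not analysed here. Expression was measured in 6 primary thymic lymphomas, with 1 Affymetrix 3' array and 1 mouse per tumour. The Notch1f/f group held 3 tumours of mice aged 8 to 10 weeks, of genotype IkL/L Notch1f/f CD4-Cre+, whose floxed Notch1 alleles are labelled as losing promoter and exon 1 sequence. The Notch1+/+ group held 3 tumours of mice aged 18 to 20 weeks, of genotype IkL/L Notch1+/+ CD4-Cre+. Both groups therefore shared the IkL/L alleles of Ikaros, a lymphoid transcription factor, and the CD4-Cre transgene, which acts in developing thymocytes. Age and genotype changed together and cannot be told apart. The tumour cells were taken by tissue disruption without a sort, so the RNA is that of a mixture. The defining markers of T cells were present in every tumour, and the summed intensity of 12 of them was 22055 to 26908 in the Notch1f/f tumours and 18454 to 21342.5 in the Notch1+/+ tumours.

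Dividing cells need nucleotides for RNA and DNA. Purines are built stepwise on phosphoribosyl pyrophosphate (PRPP) until inosine monophosphate (IMP) is formed, which is then turned into AMP or GMP. Pyrimidines are built as a free ring that is joined to PRPP and becomes UMP, from which CTP is made. Ribonucleotide reductase then makes deoxyribonucleotides, and thymidylate synthase adds the methyl group of thymidine with a folate carrier. Inherited loss of adenosine deaminase or purine nucleoside phosphorylase, enzymes of purine salvage and breakdown, depletes T cells in humans.

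Most of these genes had lower mean signals in the Notch1f/f tumours. Those lower at an unadjusted p under 0.05 were Atic, Adsl and Pfas of purine assembly, the salvage enzyme Pnp, Umps and Ctps of pyrimidine synthesis, Dtymk, Tyms and Rrm2 of deoxynucleotide supply and phosphorylation, and the folate enzymes Mthfd1 and Shmt1, while the CTP synthetase Ctps2 was higher. No member passed an adjusted p of 0.05 in limma, a threshold that 0.0415% of the 12042 genes tested passed (0.0185% of the 27022 probe sets), and none passed 0.10, against 0.241% of genes. The smallest adjusted p of a member was 0.152. At an unadjusted p under 0.05, 11 of 40 members (27.5%) were lower and 1 (2.5%) was higher in the Notch1f/f tumours, against 6.21% of all tested genes lower and 6.97% higher. The 3 Notch1f/f values lay wholly below the 3 Notch1+/+ values for 9 members (22.5%) and wholly above them for 1 (2.5%), against 9.14% and 9.21% of all tested genes. A log2 difference below 0, Notch1f/f minus Notch1+/+, was found for 30 of 40 members (75%) and for 51.6% of all genes. The median difference was -0.33 over the members and -0.015 over all genes. All differences are of log2(MAS5 intensity + 16) and all errors of differences are standard errors, with 3 tumours per group. An exact two-sided permutation test cannot go below 0.1 with 3 tumours against 3, and 0.1 was its value for each of the 10 members without overlap.

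**Figure D1:**
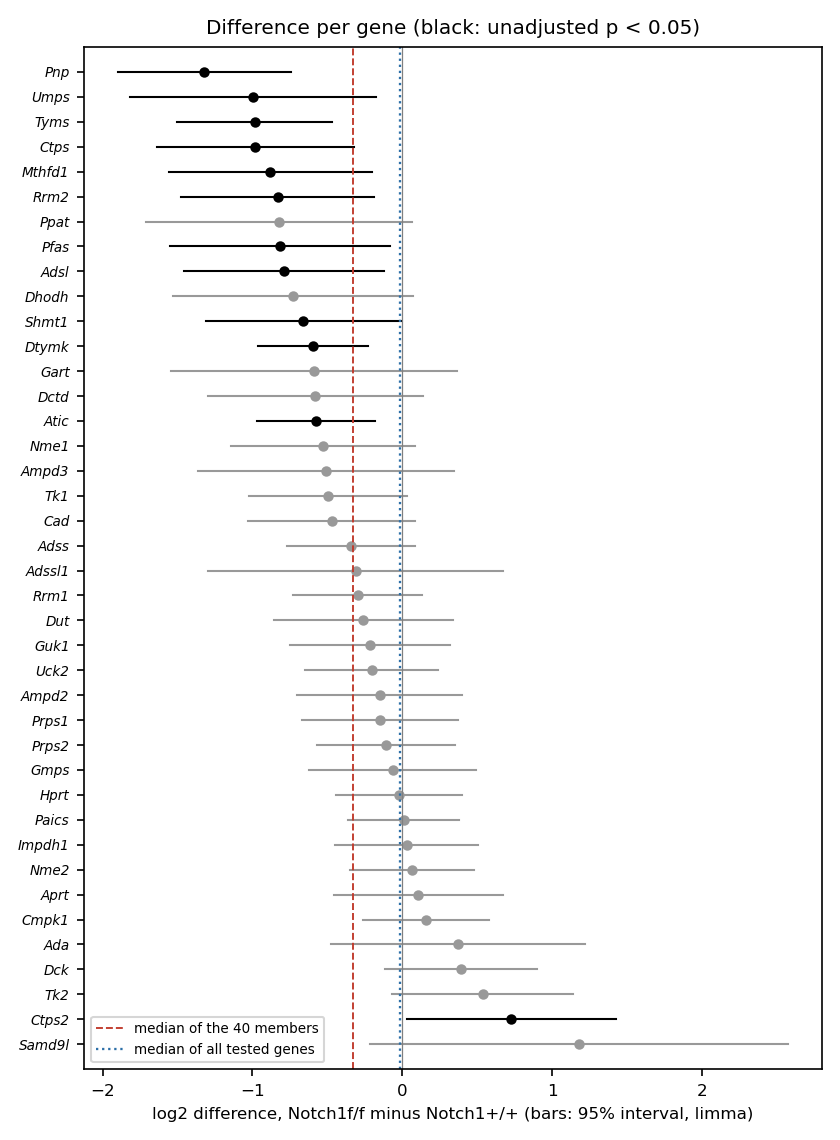
The log2 difference of each of the 40 genes (points) with its 95% interval from limma (bars), sorted by size, with negative values lower in Notch1f/f tumours. Black marks the 12 genes with an unadjusted p under 0.05, of which 11 lie below 0, and the dashed line at -0.33 is the members' median against the dotted line at -0.015 for all tested genes.

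These counts, each out of 40 members, changed when single tumours were left out, as did the shares of all genes. Without Notch1f/f tumour 2, 17 members were lower at an unadjusted p under 0.05, against 9.70% of all genes, and 22 were lower without overlap, against 19.4% of all genes. Without Notch1f/f tumour 1 or 3 or Notch1+/+ tumour 2 the count at that p was 7, and without Notch1+/+ tumour 3 it was 6, where 3.01%, 4.09%, 3.50% and 4.77% of all genes were lower. Without Notch1+/+ tumour 1, 17 of 40 members were lower without overlap, against 17.0% of all genes. The count of members higher at that p was 0 without Notch1f/f tumour 1 or Notch1+/+ tumour 2 or 3, where 4.39%, 5.07% and 5.56% of all genes were higher. It was 2 without Notch1f/f tumour 2 or 3, against 8.93% and 4.83% of all genes. Higher members without overlap numbered 2 without Notch1f/f tumour 1 or 2 or Notch1+/+ tumour 3, against 12.6%, 17.6% and 13.7% of all genes. They numbered 3 without Notch1f/f tumour 3 or Notch1+/+ tumour 1, against 12.5% and 17.7% of all genes.

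The tumours of a group were not alike. The mean log2 level of the 40 members was 8.63, 9.02 and 8.69 in Notch1f/f tumours 1, 2 and 3, against 8.92, 9.17 and 9.20 in Notch1+/+ tumours 1, 2 and 3. Notch1f/f tumour 2 thus lay above Notch1+/+ tumour 1. For 29 of 40 members Notch1f/f tumour 2 was the tumour of its group nearest to the mean of the Notch1+/+ tumours. In 22 members Notch1f/f tumours 1 and 3 were both below all Notch1+/+ tumours, and in 13 of these Notch1f/f tumour 2 was not. Notch1f/f tumour 1 held the lowest value of 16 members and Notch1+/+ tumour 3 the highest value of 15. Notch1+/+ tumour 1 held the lowest value of 8 members, among them Prps1, Gmps, Hprt, Aprt, Ada and Dut.

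**Figure D2:**
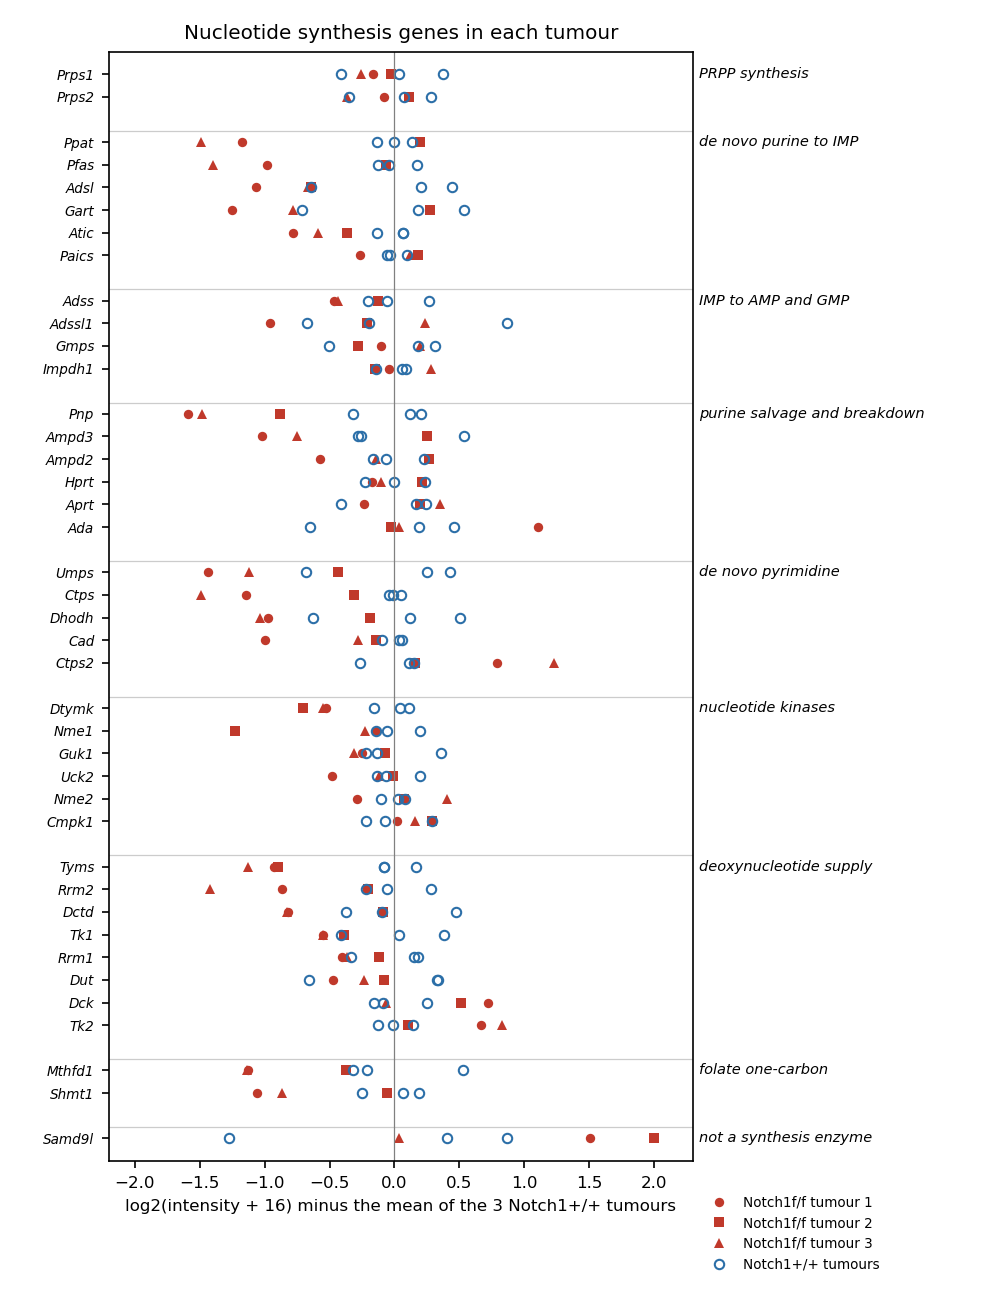
Each gene's log2(intensity + 16) in every tumour, as the difference from the mean of the 3 Notch1+/+ tumours, ordered by step of the pathway. Filled red symbols are the Notch1f/f tumours (circle, square and triangle for tumours 1, 2 and 3) and open circles the Notch1+/+ tumours, and the squares lie nearer to the open circles than the other red symbols in 29 of 40 genes.

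Other measures differed between the groups as well. The summed intensity of 19 genes of dividing cells, such as the replicative helicase subunit Mcm3, was 23602, 31470 and 25220 in Notch1f/f tumours 1, 2 and 3, against 36174, 33187 and 33184 in Notch1+/+ tumours 1, 2 and 3. Of these 19 genes, 18 had a difference below 0, against 51.6% of all genes. At an unadjusted p under 0.05 in limma, 8 were lower and 0 higher, against 6.21% and 6.97% of all genes. Notch1f/f tumour 2 had the highest sum of its group, while Notch1+/+ tumour 1 had the highest of all and the lowest mean of the nucleotide genes in its group. The 8 macrophage markers, 5 of them higher at that p, summed to 1079 to 1742 in the Notch1f/f tumours and 171 to 749.9 in the Notch1+/+ tumours. The 6 B cell markers summed to 132 to 319 in the Notch1f/f tumours and 81.8 to 89.5 in the Notch1+/+ tumours. Of the 5 tested, 1 was higher at that p. Cd22, Ms4a1 and Pax5 stayed under an intensity of 50, and Cd79a alone had 121 in Notch1f/f tumour 3, where the sum was 319. The 6 fibroblast markers summed to 55.3 to 124 in the Notch1f/f tumours and 229 to 1269.8 in the Notch1+/+ tumours. Of the 5 tested, 1 was lower at that p. Col1a1, Dcn, Lum and Pdgfra stayed under an intensity of 50, and Col1a2 alone had 978 in Notch1+/+ tumour 2, where the sum was 1269.8. The 6 markers of thymic epithelium all stayed under an intensity of 50. The 18S ribosomal RNA controls of the arrays differed too, at 318.9, 287 and 249.5 for the 3' control on the Notch1f/f arrays, against 64.8, 103 and 125 on the Notch1+/+ arrays. The ratio of 3' to 5' signal of beta-actin, a sign of RNA length, was 1.64, 1.35 and 1.58 on the Notch1f/f arrays. It was 2.23, 1.36 and 1.38 on the Notch1+/+ arrays, so that Notch1+/+ tumour 1 stood apart by this control. By the Gapdh control it was highest too but close to Notch1f/f tumour 1. The Gapdh ratio was 1.027, 0.836 and 0.955 on the Notch1f/f arrays and 1.075, 0.795 and 0.767 on the Notch1+/+ arrays. The part of these measures in the members' differences was not tested. In such bulk samples fewer cells of a type and less RNA per cell cannot be told apart.

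**Figure D3:**
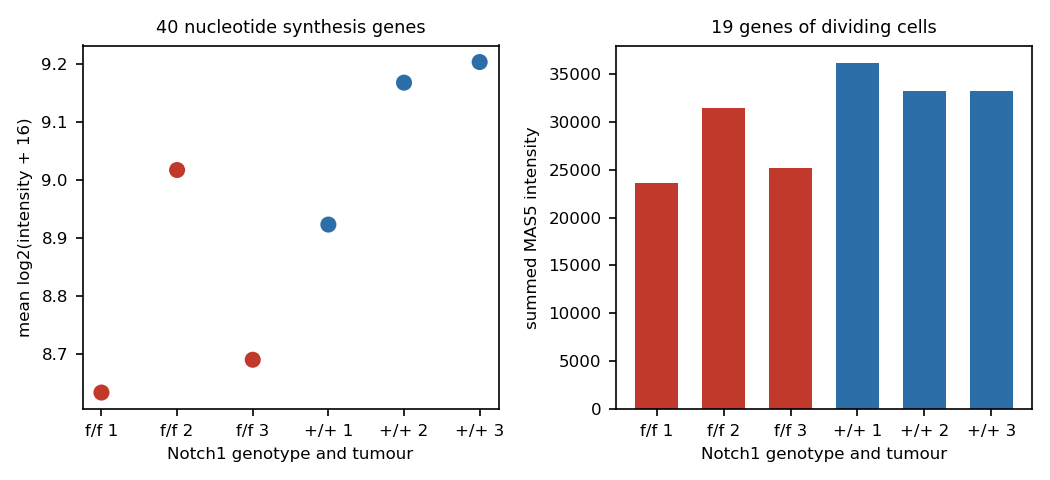
Left, the mean log2(intensity + 16) of the 40 nucleotide genes in each tumour, on an axis that does not start at 0, and right, the summed intensity of 19 dividing-cell genes, with Notch1f/f tumours in red and Notch1+/+ tumours in blue. Notch1f/f tumour 2 is the highest of its group in both, and Notch1+/+ tumour 1 is the lowest of its group on the left and the highest on the right.

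Prps1 and Prps2, the synthetases that make PRPP, had log2 differences of -0.15 ± 0.23 and -0.11 ± 0.20. The groups overlapped for both, and the 95% intervals ran from -0.67 to 0.37 and from -0.57 to 0.35.

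Purine assembly up to IMP had lower mean signals in all but 1 of its genes. Of these 6 genes, 5 had differences below 0, against 51.6% of all genes, with a median difference of -0.69. At an unadjusted p under 0.05, 3 were lower, against 6.21% of all genes. Atic, which closes the purine ring in the last steps to IMP, had intensities of 888, 1196 and 1022 in the Notch1f/f tumours, against 1615, 1404 and 1619 in the Notch1+/+ tumours, with no overlap. Its log2 difference was -0.58 ± 0.17 (limma adjusted p = 0.287). Adsl, which acts both before IMP and on the way to AMP, had 235.5, 320.3 and 317 in the Notch1f/f tumours, against 321, 589 and 699 in the Notch1+/+ tumours. The groups of Adsl were separated by a narrow gap, with Notch1f/f tumour 2 just below Notch1+/+ tumour 1, and the difference was -0.79 ± 0.30 (limma adjusted p = 0.316). Pfas, an amidotransferase of the middle of the pathway, had 196, 383 and 142 in the Notch1f/f tumours, against 454, 366 and 389 in the Notch1+/+ tumours. Only Notch1f/f tumour 2 reached the range of the Notch1+/+ tumours, and the difference was -0.81 ± 0.33 (limma adjusted p = 0.336).

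Ppat, the amidotransferase that commits PRPP to purine synthesis, had 149.6, 414 and 117 in the Notch1f/f tumours, against 326, 358 and 395.5 in the Notch1+/+ tumours. Notch1f/f tumours 1 and 3 were under every Notch1+/+ tumour, and Notch1f/f tumour 2 was above them all, which gave a difference of -0.82 ± 0.39 (limma adjusted p = 0.393). Leaving out Notch1f/f tumour 2 gave -1.33, and leaving out tumour 3 of that group gave -0.49. A dimmer probe set of Ppat did not overlap, at 69.6, 146 and 66.4 in the Notch1f/f tumours, against 178, 154 and 163 in the Notch1+/+ tumours. Gart, a trifunctional enzyme of the same route, had a difference of -0.59 ± 0.42 and spread widely within both groups, at 209.9 to 632 in the Notch1f/f tumours and 311 to 764.5 in the Notch1+/+ tumours. Paics, which carries out a carboxylation and the next step, was the exception, at 1911, 2603 and 2498 in the Notch1f/f tumours, against 2244, 2206 and 2456 in the Notch1+/+ tumours. Its difference was 0.011 ± 0.16, with a 95% interval from -0.36 to 0.38.

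Ppat and Paics sit head to head on mouse chromosome 5. In the RefSeq annotation of GRCm38.p6, Ppat starts at base 76951578 on the minus strand and Paics at base 76951302 on the plus strand, so their transcribed parts overlap by 277 bases at the 5' ends. Their windows from 250 bases before to 50 bases after each start are printed here because the genes are such close neighbours, and that of Atic because it holds the same motif as Paics. RefSeq promoter windows were found for 38 of the 40 members. Each was searched on both strands for CACGTG, the E-box bound by Myc and related factors, and for TTTCCCGC and TTTGGCGC, forms of the E2F site. Capitals mark the matches. The strand is plus for Paics and Atic and minus for Ppat, and each sequence reads 5′ to 3′ along its gene.
Ppat, chr5:76951529-76951828: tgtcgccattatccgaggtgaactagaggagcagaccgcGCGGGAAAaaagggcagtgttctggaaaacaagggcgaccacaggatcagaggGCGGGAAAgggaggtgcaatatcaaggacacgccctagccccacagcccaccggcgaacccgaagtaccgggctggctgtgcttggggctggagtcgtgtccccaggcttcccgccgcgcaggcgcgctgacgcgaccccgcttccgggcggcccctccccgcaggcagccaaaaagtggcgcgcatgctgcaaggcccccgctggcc
Paics, chr5:76951052-76951351: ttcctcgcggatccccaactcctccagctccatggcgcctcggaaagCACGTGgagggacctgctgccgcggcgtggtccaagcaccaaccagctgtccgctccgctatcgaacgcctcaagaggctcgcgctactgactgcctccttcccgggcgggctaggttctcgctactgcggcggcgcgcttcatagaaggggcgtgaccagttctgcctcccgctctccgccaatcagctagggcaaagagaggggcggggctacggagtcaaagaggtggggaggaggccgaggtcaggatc
Atic, chr1:71556906-71557205: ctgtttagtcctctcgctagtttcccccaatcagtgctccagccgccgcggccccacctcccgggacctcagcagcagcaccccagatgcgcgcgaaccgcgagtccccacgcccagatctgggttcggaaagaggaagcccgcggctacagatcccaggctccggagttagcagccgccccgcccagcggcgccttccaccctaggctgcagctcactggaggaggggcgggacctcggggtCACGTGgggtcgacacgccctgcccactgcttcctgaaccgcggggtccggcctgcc
The window of Ppat holds TTTCCCGC at 2 places, read on the other strand, which start 211 and 158 bases upstream of the gene's start. Those of Paics and Atic hold CACGTG, 203 and 7 bases upstream. CACGTG was found in 6 of 38 members (15.8%), namely Ampd3, Atic, Dtymk, Nme1, Paics and Tyms, and in 8.91% of 17491 protein-coding genes with such windows. TTTCCCGC was found in Ppat and Prps2 only, 2 of 38 (5.26%), against 1.61% of protein-coding genes, and TTTGGCGC in 0 of 38, against 0.726%. A match describes the letters of the window and was not tested as a binding site.

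The genes that lead from IMP to AMP and GMP had differences between -0.34 and 0.028. Adss, the adenylosuccinate synthetase of most tissues, had -0.34 ± 0.19, and Adssl1, the muscle form, -0.31 ± 0.44. Gmps, which makes GMP, had -0.064 ± 0.25, and Impdh1, the dehydrogenase form measured here, 0.028 ± 0.21. None of these 4 had an unadjusted p under 0.05, and both groups overlapped for each.

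Of the 40 members, Pnp had the most negative difference and the smallest adjusted p. Pnp, purine nucleoside phosphorylase, splits inosine and guanosine and their deoxy forms, and its intensities were 184.5, 311 and 199.7 in the Notch1f/f tumours, against 467, 682 and 639 in the Notch1+/+ tumours. Every Notch1f/f tumour lay under every Notch1+/+ tumour. The signal was 2.5-fold lower in the Notch1f/f tumours on the log2(intensity + 16) scale, a log2 difference of -1.32 ± 0.26 with a 95% interval from -1.90 to -0.74 (limma adjusted p = 0.152), and with each tumour left out in turn it stayed between -1.54 and -1.19. Pnp lies on chromosome 14 at bases 50944303 to 50953412 (GRCm38.p6).

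Ada, adenosine deaminase, which acts just before Pnp, had 587, 259 and 271 in the Notch1f/f tumours, against 163, 369 and 303 in the Notch1+/+ tumours. A single tumour, Notch1f/f tumour 1, stood above the rest, and the difference was 0.37 ± 0.38 (limma adjusted p = 0.681), or 0.0059 without that tumour. Hprt, which recycles hypoxanthine and guanine, had a difference of -0.021 ± 0.19 with a 95% interval from -0.44 to 0.40. Aprt, which recycles adenine, had 0.11 ± 0.25 with an interval from -0.46 to 0.67. Of the AMP deaminases, Ampd2 had -0.15 ± 0.24 and Ampd3 -0.51 ± 0.38, both with overlap. A dimmer probe set of Ampd2 was lower without overlap, at -0.62 ± 0.28.

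In pyrimidine synthesis the genes from the first step to CTP had lower mean signals, and Ctps2 a higher one. Of the 5 genes, 4 had differences below 0, against 51.6% of all genes, with a median of -0.73. At an unadjusted p under 0.05, 2 were lower and 1 higher, against 6.21% and 6.97% of all genes. Cad, the trifunctional enzyme that controls the route, had 289, 535 and 484 in the Notch1f/f tumours, against 553, 619 and 607 in the Notch1+/+ tumours. The groups did not overlap, by a small gap between Notch1f/f tumour 2 and Notch1+/+ tumour 1, and the difference was -0.47 ± 0.25 (limma adjusted p = 0.424). It was -0.21 without Notch1f/f tumour 1, and a probe set of Cad nearly as bright overlapped, at -0.31 ± 0.25. Dhodh, the mitochondrial dehydrogenase that follows, had -0.73 ± 0.35 with overlap. Umps, which completes UMP, had 63.5, 143.5 and 82.8 in the Notch1f/f tumours, against 118, 239.9 and 274 in the Notch1+/+ tumours. Here Notch1f/f tumour 2 exceeded Notch1+/+ tumour 1, and the difference was -0.997 ± 0.36 (limma adjusted p = 0.310). Another probe set of Umps, nearly as bright, gave only -0.36 ± 0.31.

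CTP is made from UTP by either of a pair of synthetases, which had opposite signs here. Ctps had 259, 473 and 200.1 in the Notch1f/f tumours, against 586, 613 and 572 in the Notch1+/+ tumours. Its Notch1+/+ values lay close together and all Notch1f/f values were below them, with a difference of -0.98 ± 0.29 (limma adjusted p = 0.283). Ctps2, the X-linked form, had 153, 93.1 and 213 in the Notch1f/f tumours, against 65.4, 92.8 and 89.9 in the Notch1+/+ tumours. Its groups were separated by a gap of less than 1 intensity unit, set by Notch1f/f tumour 2, and the difference was 0.72 ± 0.31 (limma adjusted p = 0.354). Whether the differences of Ctps and Ctps2 differ from each other was not tested.

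**Figure D4:**
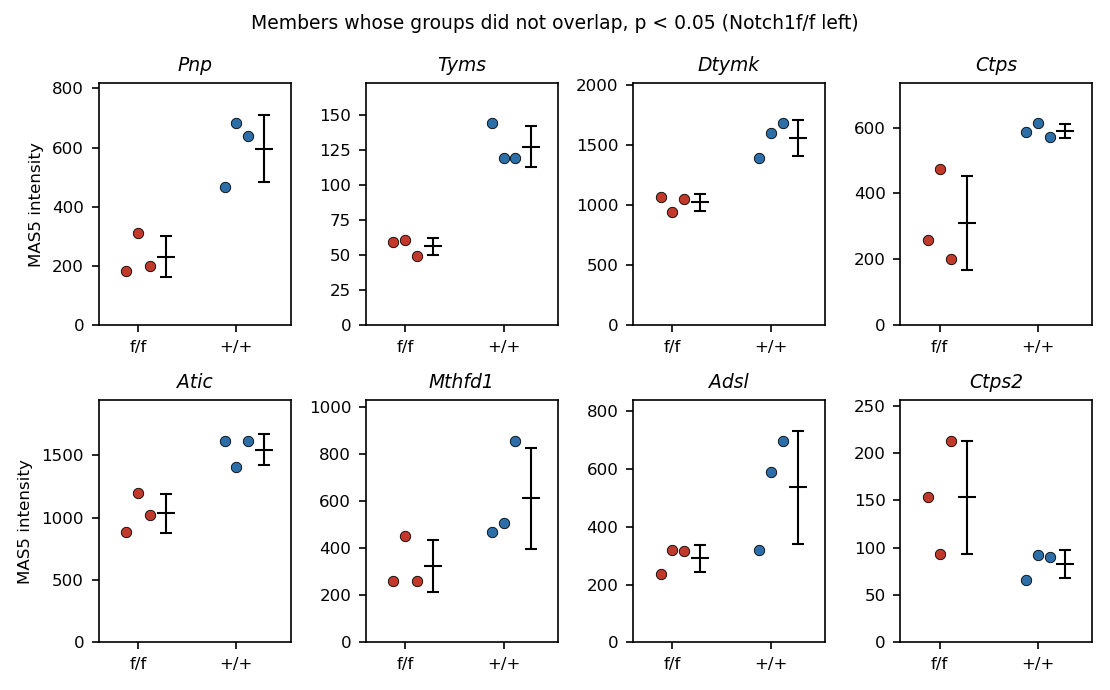
MAS5 intensity in each tumour for the 8 members without overlap between groups and with an unadjusted p under 0.05, Notch1f/f left and Notch1+/+ right, with the mean and SD of 3 tumours beside the points. Ctps2 is the gene of these 8 that is higher in the Notch1f/f tumours, and the other 7 are lower.

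Among the 6 kinases that add phosphates to nucleotides, the median difference was -0.21. At an unadjusted p under 0.05, 1 was lower, against 6.21% of all genes. That gene, the thymidylate kinase Dtymk, had 1067, 942 and 1052 in the Notch1f/f tumours, against 1386, 1595 and 1677 in the Notch1+/+ tumours, with no overlap and little spread within the Notch1f/f group. The difference was -0.60 ± 0.16 (limma adjusted p = 0.258), and its next probe set gave -0.66 ± 0.19, also without overlap. The third Dtymk probe set overlapped, at -0.42 ± 0.27. Unlike most members, Dtymk had its lowest value in Notch1f/f tumour 2. Its window holds CACGTG 148 bases upstream of the start, on the minus strand of chromosome 1, and is shown with that match in capitals.
Dtymk, chr1:93801885-93802184: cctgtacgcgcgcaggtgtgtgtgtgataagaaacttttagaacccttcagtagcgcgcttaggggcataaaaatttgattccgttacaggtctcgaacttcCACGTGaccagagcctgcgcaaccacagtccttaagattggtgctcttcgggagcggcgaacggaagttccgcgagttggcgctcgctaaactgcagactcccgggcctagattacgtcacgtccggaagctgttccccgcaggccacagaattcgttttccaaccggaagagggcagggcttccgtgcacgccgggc
Nme1, a nucleoside diphosphate kinase, had 2825, 1322 and 2664 in the Notch1f/f tumours, against 3569, 2828 and 2998 in the Notch1+/+ tumours. Its groups did not overlap, but the low value of Notch1f/f tumour 2 was read by a probe set of a type that can detect more than 1 transcript, and the other Nme1 probe set overlapped, at 1273, 1504 and 1534 in the Notch1f/f tumours, against 1243, 1617 and 1740.1 in the Notch1+/+ tumours. Their differences were -0.53 ± 0.27 and -0.083 ± 0.18. Nme2, the neighbouring and closely similar gene, had 0.066 ± 0.18. Guk1, Uck2 and Cmpk1, the kinases of GMP, of uridine and cytidine, and of UMP and CMP, had -0.21 ± 0.24, -0.20 ± 0.20 and 0.15 ± 0.19, all with overlap.

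In deoxynucleotide supply, Tyms and Rrm2 were lower, and the salvage kinases Dck and Tk2 had differences above 0. Of 8 genes, 6 had differences below 0, against 51.6% of all genes, with a median of -0.40. At an unadjusted p under 0.05, 2 were lower, against 6.21% of all genes. Tyms, thymidylate synthase, had 59, 60.6 and 49.2 in the Notch1f/f tumours, against 144, 119 and 119 in the Notch1+/+ tumours. Both groups were tight and lay well apart, and the difference was -0.99 ± 0.23 (limma adjusted p = 0.211). The next Tyms probe set was dimmer and did not overlap either, at -0.47 ± 0.23, and the rest were too dim to be tested. The promoter window of Tyms, on the minus strand of chromosome 5, holds CACGTG 61 bases upstream of the start, shown in capitals.
Tyms, chr5:30073576-30073875: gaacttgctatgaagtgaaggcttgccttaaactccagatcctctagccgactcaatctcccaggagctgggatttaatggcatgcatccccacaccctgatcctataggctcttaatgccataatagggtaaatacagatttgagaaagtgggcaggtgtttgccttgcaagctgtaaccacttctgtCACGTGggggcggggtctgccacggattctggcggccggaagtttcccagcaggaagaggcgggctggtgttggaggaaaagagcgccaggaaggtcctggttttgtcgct
Rrm2, the subunit of ribonucleotide reductase that cycles with S phase, had 1516, 2414 and 1029 in the Notch1f/f tumours, against 2384, 3380 and 2676 in the Notch1+/+ tumours. Notch1f/f tumour 2 reached just above the lowest Notch1+/+ tumour, and the difference was -0.83 ± 0.29 (limma adjusted p = 0.297). The second Rrm2 probe set overlapped as well, with 802, 1376 and 550 in the Notch1f/f tumours, against 1138, 1879.8 and 1374 in the Notch1+/+ tumours and a difference of -0.75 ± 0.32. The dimmest did not overlap, with 431, 671 and 341 in the Notch1f/f tumours, against 847, 1429.6 and 1227 in the Notch1+/+ tumours and a difference of -1.27 ± 0.28. Rrm1, the large subunit, had 1208, 1479 and 1241 in the Notch1f/f tumours, against 1272, 1819.9 and 1788 in the Notch1+/+ tumours. Its values overlapped through Notch1+/+ tumour 1, and the difference was -0.30 ± 0.19 (limma adjusted p = 0.510). The next Rrm1 probe set gave -0.83 ± 0.35 and the dimmest -0.098 ± 0.24, both with overlap.

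Tk1, the cytosolic thymidine kinase, had 368, 413 and 368 in the Notch1f/f tumours, against 405, 559 and 715 in the Notch1+/+ tumours. Notch1f/f tumour 2 lay just above Notch1+/+ tumour 1, and the difference was -0.50 ± 0.23 (limma adjusted p = 0.389). Dctd, which deaminates dCMP, and Dut, which clears dUTP, had -0.58 ± 0.32 and -0.26 ± 0.27. Dck, the deoxycytidine kinase of salvage, had 2377.5, 2064.5 and 1373.5 in the Notch1f/f tumours, against 1712, 1350.5 and 1288.5 in the Notch1+/+ tumours. Its difference was 0.39 ± 0.23 (limma adjusted p = 0.465), while its dimmest probe set had the other sign, at -0.54 ± 0.28. The difference of Dck was 0.078 as the mean of its probe sets and 0.22 to 0.62 with each tumour left out. Tk2, the mitochondrial thymidine kinase, had 0.54 ± 0.27, with overlap through Notch1f/f tumour 2.

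Both cytosolic folate enzymes were lower at an unadjusted p under 0.05, against 6.21% of all genes. Mthfd1, which prepares the one-carbon units for purines and thymidylate, had 261, 452 and 260.1 in the Notch1f/f tumours, against 470.5, 508 and 857.5 in the Notch1+/+ tumours. The groups did not overlap, and the difference was -0.88 ± 0.30 (limma adjusted p = 0.296). The next Mthfd1 probe set and the dimmest both overlapped, at -0.99 ± 0.35 and -0.52 ± 0.29. Shmt1, which loads folate with a carbon of serine, had 189, 396 and 219 in the Notch1f/f tumours, against 432, 343 and 471 in the Notch1+/+ tumours. Notch1f/f tumour 2 again lay within the Notch1+/+ range, and the difference was -0.66 ± 0.29 (limma adjusted p = 0.363).

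**Figure D5:**
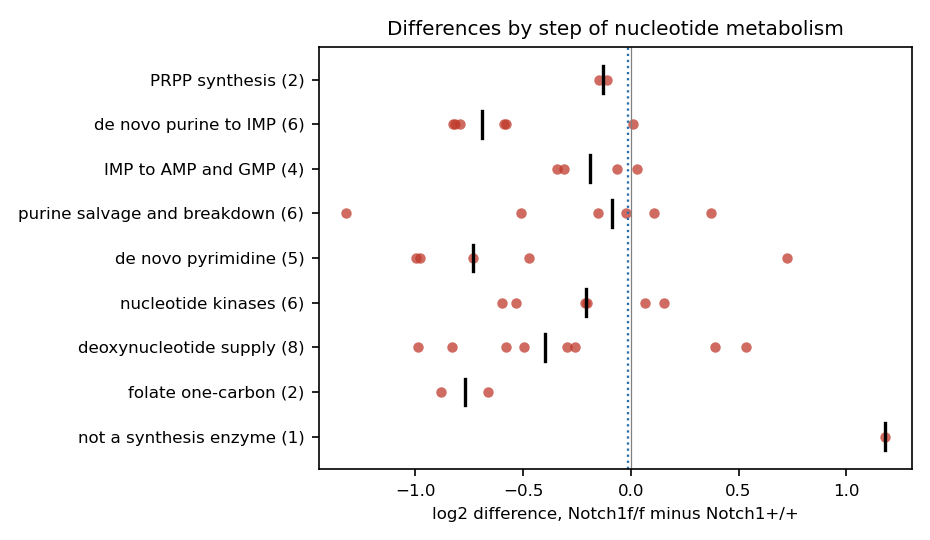
The log2 difference of each gene (red points) by step, with the number of genes in brackets, the median of the step as a black bar and the median of all tested genes as a dotted line. The medians of purine assembly, pyrimidine synthesis and the folate enzymes are -0.69, -0.73 and -0.77, against -0.09 for purine salvage and -0.13 for PRPP synthesis.

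Samd9l, an interferon-induced gene that makes no nucleotide, was listed with these enzymes. Its intensities were 128.5, 187.5 and 36.2 in the Notch1f/f tumours, against 77, 51.3 and 5.1 in the Notch1+/+ tumours. They varied widely in both groups, and the difference was 1.18 ± 0.62 (limma adjusted p = 0.424). Of 7 other interferon-induced genes tested, 3 were higher and 0 lower at an unadjusted p under 0.05, against 6.97% and 6.21% of all genes. The higher ones were Rsad2, Irf7 and Mx1, while Usp18 and Stat2 had differences of -1.72 ± 0.89 and -0.20 ± 0.25, both with overlap. Without Samd9l the median of the remaining 39 members was -0.34.

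The probe sets of a gene mostly had the same sign. Of 22 members with several tested probe sets, 19 had a single sign throughout, and Dck, Gmps and Paics had both. Of the 12 members with an unadjusted p under 0.05, 8 had a further tested probe set, and for Atic, Dtymk, Rrm2, Mthfd1 and Shmt1 at least 1 of these also had an unadjusted p under 0.05 in the same direction. Cad, Gart, Ppat and Rrm1 had such a p only on a probe set other than the brightest. That of Cad was its dimmest, near the lowest intensities tested. It had 7.9, 16.5 and 6 in the Notch1f/f tumours, against 17.2, 31.4 and 37.9 in the Notch1+/+ tumours. Probe sets of a gene share their RNA and array, so they do not add tumours.

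The other genes of nucleotide metabolism, such as further kinases, nucleotidases and serine and folate enzymes, were read from a separate list. Of 63 such genes, 51 had a probe set of their own and 42 were tested. At an unadjusted p under 0.05, 5 of the 42 were lower and 3 higher, against 6.21% and 6.97% of all genes, none passed an adjusted p of 0.05 in limma, and the median difference was -0.14. Psat1, an aminotransferase of serine synthesis, had 415, 741 and 588 in the Notch1f/f tumours, against 859, 1581 and 1212 in the Notch1+/+ tumours. Mthfd2, a mitochondrial folate enzyme, had 72.4, 165 and 58.4 in the Notch1f/f tumours, against 173, 407 and 279.9 in the Notch1+/+ tumours. Both were lower without overlap, by -1.04 ± 0.28 (limma adjusted p = 0.255) and -1.44 ± 0.40 (limma adjusted p = 0.267), as was Nme6, a nucleoside diphosphate kinase homologue, at -0.62 ± 0.26. Mthfs, which returns a stored folate form to use, had 62, 12 and 61.7 in the Notch1f/f tumours, against 9.3, 11.1 and 3.9 in the Notch1+/+ tumours, higher without overlap (limma adjusted p = 0.291). Its Notch1+/+ values and that of Notch1f/f tumour 2 were near the lowest intensities tested, and no size is given because they were not shown to be above background. The nucleotidases Nt5c3b and Nt5m were also higher without overlap, at 0.45 ± 0.19 and 0.20 ± 0.21.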

How the data were processed

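Biotin-labelled RNA of 6 tumours was hybridised to Affymetrix arrays, 1 per tumour. The deposited values are linear intensities per probe set that the authors made with MAS5 (version not given), per the submitters' processing notes. A mean trimmed by 2% at both ends equalled 100 on all 6 arrays, which shows a common scaling. No detection calls entered the analysis, and the number of arrays limits the precision.

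Genes were named from the array's annotation table, and probe sets with several symbols were not used. Values were transformed to log2(intensity + 16). Controls and probe sets with a mean under the 40th percentile (4.56) were dropped over all arrays, without regard to group. The brightest probe set of all 40 members was among the 27022 kept. A linear model in limma 3.58.1 (R 4.3.3; lmFit, then eBayes with trend) compared the genotypes, two-sided, with Benjamini-Hochberg adjustment over all tested probe sets and no covariate, since the labels give no batch or pairing. It was tested on simulated arrays. Shares of all genes rest on the brightest probe sets of 12042 genes.

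Members, gene lists, motifs and tests were chosen with earlier results of these data known. Per-tumour values are given for members without overlap at an unadjusted p under 0.05 and for a fixed set of step-controlling enzymes. Those of Pfas, Umps, Shmt1, Paics, Nme1 and Samd9l, and of further probe sets, were added after they were seen. Of the other nucleotide genes, at most 3 in each direction are named, by smallest p without overlap. Promoter windows came from RefSeq (GRCm38.p6). Alternatives were other pseudocounts, filters, scalings, array weights, moderation and probe set choices, and each array left out. Figures used matplotlib 3.10.9 under Python 3.11.15.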

Additional observations from a re-analysis of the deposited data

How the results depend on the processing

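No member passed an adjusted p of 0.05 in limma under any alternative run, nor 0.10 with the fit unchanged, and the smallest adjusted p of a member was 0.0607, with array weights. The 15 genes given in full by the fixed rule kept their sign and their side of that threshold in all 240 recomputed values, but some moved by over 1.5 times. With each gene's probe sets averaged, Atic had -1.04, Ctps2 0.48 and Dck 0.078. Without Notch1f/f tumour 1 Ada had 0.0059, Cad -0.21 and Dck 0.22, without Notch1f/f tumour 2 Ppat had -1.33 and Ada 0.57, and without Notch1f/f tumour 3 Ppat had -0.49, Ctps2 0.47, Rrm2 -0.54 and Dck 0.62. Without Notch1+/+ tumour 1 Ada had 0.048 and Rrm1 -0.46, without Notch1+/+ tumour 2 Ada had 0.60, and without Notch1+/+ tumour 3 Tk1 had -0.30. The median difference of the members ranged from -0.45 to -0.24 over the other settings and from -0.49 to -0.23 with each tumour left out. With array weights, 17 of 40 members were lower and 3 higher at an unadjusted p under 0.05, against 9.8% and 9.84% of all genes. With these weights 9 other nucleotide genes were lower at that p. With median centring, 5 of 40 members were lower without overlap, against 5.66% of all genes, and 3 other nucleotide genes were lower at that p. At the same p, 10 of 40 members were lower and 1 higher, against 3.89% and 9.27% of all genes. With each tumour left out in turn, 6 to 17 of 40 members were lower at an unadjusted p under 0.05 and 0 to 2 were higher. Of the 42 other nucleotide genes tested, 2 to 9 were lower at that p and 1 to 3 higher. In the same runs 3.01% to 9.7% of all genes were lower and 4.39% to 8.93% higher at that p. Members lower without overlap numbered 9 to 22 of 40 and those higher 1 to 3. The cause of these changes was not tested. With fewer tumours, groups lie apart more often whatever the genes. Of all genes, 11.7% to 19.4% were lower without overlap with a tumour left out, against 9.14% with all 6. Those higher without overlap made up 12.5% to 17.7%, against 9.21% with all 6. Other combinations changed counts by at most 1.5 times. No paired analysis was possible because the labels give no number shared between the groups. Signal over background was not assessed by a call, so dim values such as those of Adssl1, Dctd, Samd9l, Mthfs and several interferon-induced genes are the least certain.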

Other observations

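The array also carried a probe set shared by Pnp and its neighbouring copy Pnp2, which was not used here because it names more than 1 gene. The brightest probe set of Umps was ahead of the next by a mean intensity of less than 2 units, so that the choice between differences of -0.997 and -0.36 rested on a near tie.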
